A study of Rattus norvegicus with 18 samples.

Results

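The comparison described here sets cultures that received a secreted preparation of glial progenitor cells, labelled Glutamate_secret, against cultures that received memantine. It takes in 6 of the 18 RNA sequencing libraries of the series, 3 in each group, chosen by their titles alone. All libraries came from primary neuroglial cultures of newborn Wistar rat cortex on day 10 in vitro, grown with cytosine arabinoside to hold back dividing cells, with RNA taken 4 h after the glutamate challenge. In the Glutamate_secret cultures a preparation from glial progenitors, which the study derived from human induced pluripotent stem cells, was added a day before 100 µM glutamate. The labels do not say whether it was the total secretome or its protein fraction of 3 to 100 kDa, although the names under which the counts were deposited carry the numbers 3 and 100. Memantine, at 100 µM, served as the positive control of the glutamate model, and per the study's methods it was added together with glutamate, so that agent and time of addition cannot be told apart. The Memantine label itself does not name glutamate. Untreated cultures (Control, n = 3) and cultures with glutamate alone (Glutamate, n = 3) are quoted only as ranges that show where the levels of the compared groups lie. For some genes the ranges of the other groups given glutamate, labelled Glutamate_vesicles and Glutamate_BPC (n = 3 each), are quoted in the same way.

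Glutamate opens ionotropic receptors of the NMDA and AMPA types on neurons, and prolonged opening loads the cells with calcium, an injury called excitotoxicity. Memantine blocks the open channel of the NMDA receptor and so limits calcium entry at its source. A secreted preparation holds many proteins and can act on neurons and glia through several receptors. In a mixed culture the loss of neurons and a fall of transcripts within surviving neurons give the same reading, and fewer cells of a type and less RNA per cell cannot be told apart in these data.

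The deposited totals were 9235035, 15488945 and 9956520 counts in Glutamate_secret 1, 2 and 3 and 11380907, 11412526 and 13354633 in Memantine 1, 2 and 3. Ribosomal RNA took between 3.04% and 26.6% of the counts in Glutamate_secret and between 4.16% and 13.9% in Memantine, a difference of means within the spread (exact permutation test, two-sided, p = 0.50, where 0.10 is the smallest p that 3 against 3 allows). The libraries numbered 2 stood apart from the other four in both groups on a first principal component that held 64.7% of the variance. Levels are given below as counts per 1000000 counts (CPM), with library sizes corrected by TMM factors (a trimmed mean of log ratios between libraries), and differences as log2 fold changes of Glutamate_secret minus Memantine from one edgeR fit to all 18 libraries. The study states for its experiments in general that they were repeated on cultures of unrelated cells, but neither labels nor methods tie the libraries to separate cultures, so the p-values may measure only the spread between these samples.

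Memantine 3 stood apart from Memantine 1 and 2 in the direction of the cultures given glutamate without memantine, and this bears on every neuronal result below. The label of this library was taken as given. Whether it received what the label says was not tested, so each Memantine mean, and each value without Memantine 3, carries that doubt. The summed level of 20 neuronal markers was 14890 CPM in Memantine 1 and 6831 CPM in Memantine 2, but 2747 CPM in Memantine 3, below all 3 Control libraries (5932 to 13470 CPM) and below the 3 Glutamate libraries (2876 to 5237 CPM). The same sum was 4639, 2021 and 3492 CPM in Glutamate_secret 1, 2 and 3. For 27 genes of the synaptic vesicle and its release machinery the sum was 3358, 2789 and 679 CPM in Memantine 1, 2 and 3 against 673 to 941 CPM in Glutamate_secret. Counts are therefore also given without Memantine 3 where this decides a call, and list medians with the range they took when each of the 6 libraries was left out in turn (leave-one-out range), where that range is wide.

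**Figure D1:**
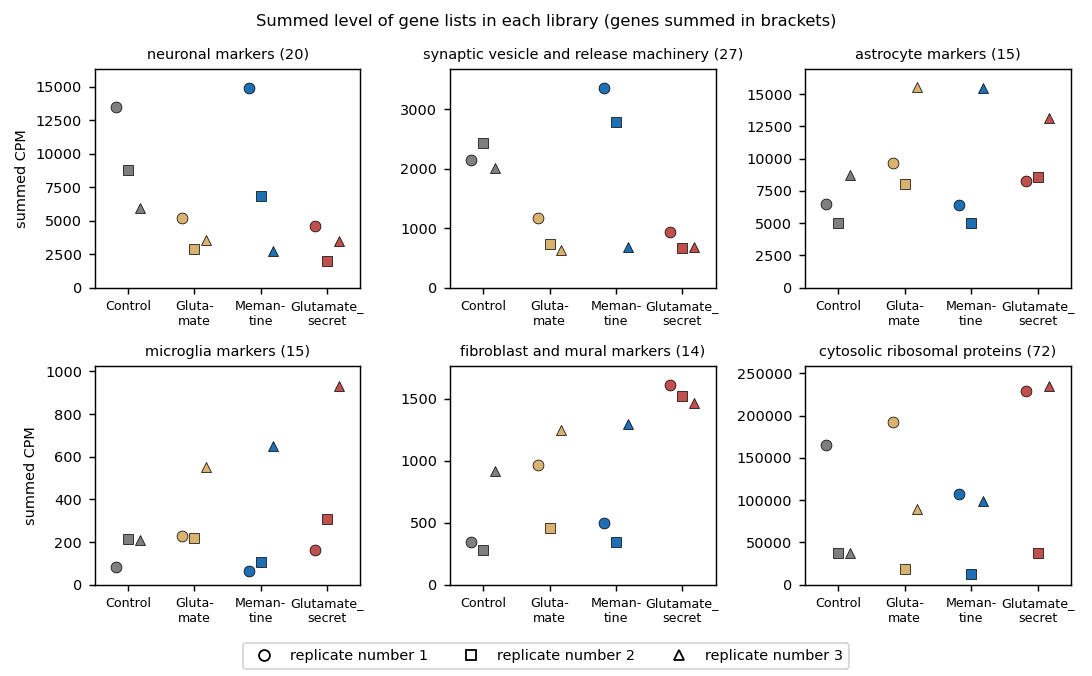
Summed level in CPM (y axis) of 6 gene lists in each of the Control, Glutamate, Memantine and Glutamate_secret libraries (x axis), with 1 symbol per library and its shape giving the replicate number. Memantine 1 and 2 reach the Control levels of the neuronal and synaptic vesicle lists or exceed them, whereas Memantine 3 sits with the Glutamate and Glutamate_secret libraries.

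Of 14398 tested genes, none (0%) passed an adjusted p of 0.05 with edgeR's quasi-likelihood test, the smallest adjusted p being 0.268, while 1310 genes had an unadjusted p below 0.05. With the replicate number as a block, again 0 genes passed (smallest adjusted p 0.0863) and 3055 had an unadjusted p below 0.05. By a looser count, which asked for a fold above 1.5 and p below 0.05 before adjustment, 223 genes (1.55%) were higher and 1081 (7.51%) lower in Glutamate_secret. The block moved these to 1357 genes higher (9.42%) and 1672 lower (11.6%), so the share of higher genes went from 17.1% to 44.8%. The 3 Glutamate_secret libraries all lay above the 3 Memantine libraries for 256 genes (1.78%) and all below them for 403 (2.8%), and such genes are called separated here. In all 3 same-numbered pairs 1099 genes (7.63%) were over 1.5-fold higher and 821 (5.7%) over 1.5-fold lower. Other tools and library sets did call genes. DESeq2 called 19 genes higher (0.135%) and 183 lower (1.3%), while a likelihood-ratio test gave 6 higher (0.0417%) and 76 lower (0.528%). Without Memantine 3, edgeR called 161 higher (1.1%) and 512 lower (3.49%), and with the block besides, 1154 higher (7.88%) and 1323 lower (9.03%). A fit of the 6 libraries alone with the block called 283 genes higher (2.15%) and 161 lower (1.22%).

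**Figure D2:**
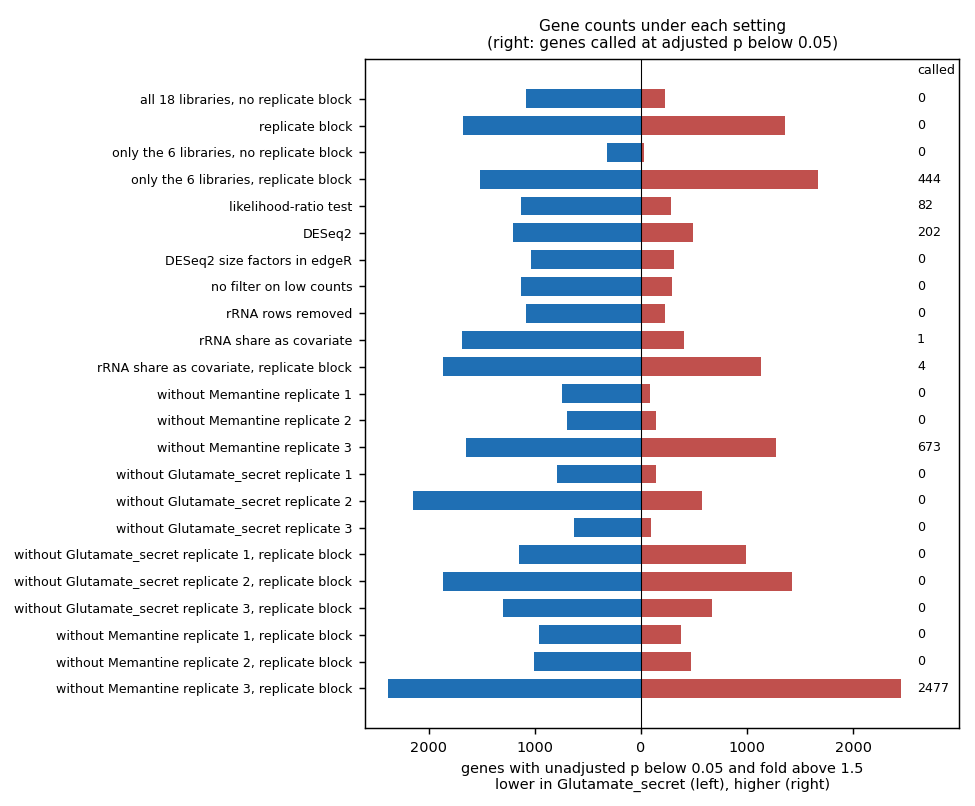
Number of genes (x axis) with an unadjusted p below 0.05 and a fold above 1.5, lower in Glutamate_secret to the left and higher to the right, under each setting (y axis), with the number of genes called at an adjusted p below 0.05 printed at the right. Leaving out Memantine 3 is the only removal of a single library after which genes were called.

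The genes described first are the 10 higher and 10 lower in Glutamate_secret with the smallest p among symbols at a mean of at least 1 on the log2 CPM scale whose group ranges did not overlap. Non-overlap was part of that choice and is not a finding. Their adjusted p-values lay between 0.268 and 0.276 without the block. DESeq2 gave all of them but LOC120094815 an adjusted p below 0.05, and so did the block without Memantine 3 for all 20. A small p was part of the choice as well. Low adjusted p-values in other fits of the same libraries therefore follow in part from it and are not independent support.

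**Figure D3:**
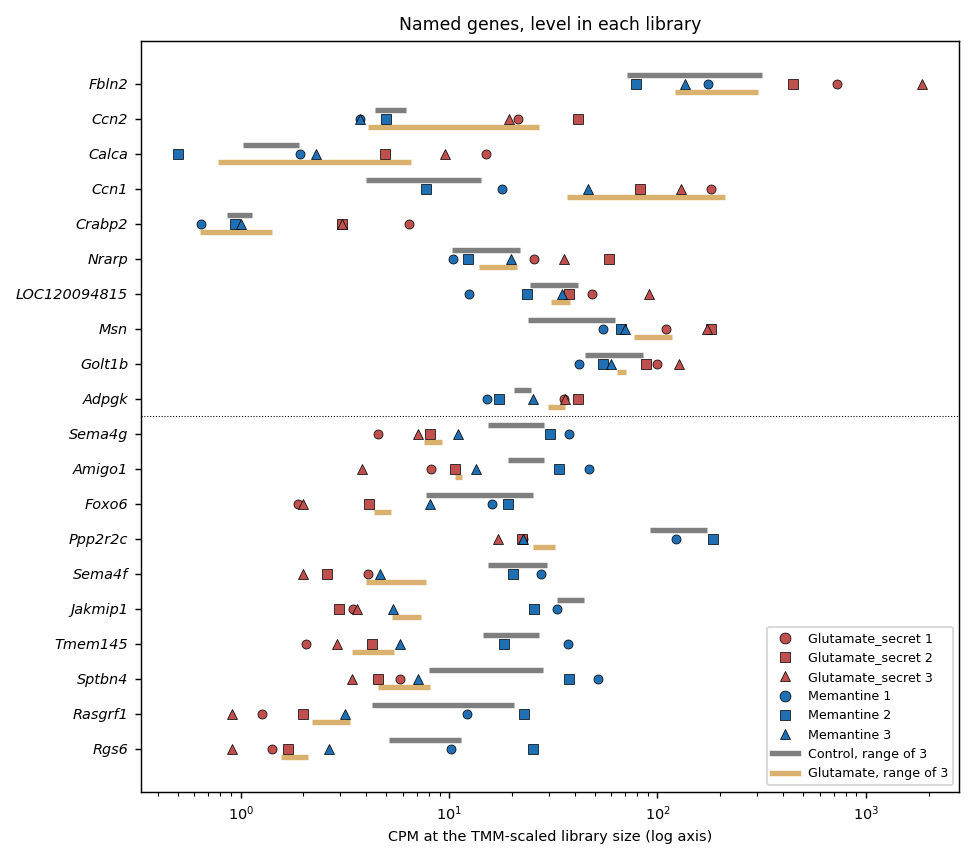
Level of 20 genes (y axis) in CPM on a log axis (x axis) in each Glutamate_secret (red) and Memantine (blue) library, with symbol shape for the replicate number and bars for the range of 3 Control and 3 Glutamate libraries. For the genes in the lower block Memantine 3 lies between Memantine 1 and 2 and the Glutamate_secret libraries.

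Matricellular and extracellular matrix genes led the higher side. Fbln2, which encodes the matrix glycoprotein fibulin-2, was at 723, 447 and 1862 CPM in Glutamate_secret 1, 2 and 3 and at 175, 79.0 and 135 CPM in Memantine 1, 2 and 3. All 3 Glutamate_secret libraries also lay above the Control (71.7 to 316 CPM) and Glutamate (121 to 304 CPM) ranges. So did the Glutamate_vesicles (409 to 659.2 CPM) and Glutamate_BPC (357.6 to 721.5 CPM) libraries, so this was not particular to Glutamate_secret. The log2 difference was 2.96 ± 0.67 (SE), a 7.8-fold ratio, with an edgeR adjusted p of 0.268, of 0.0863 with the block and of 0.00313 with DESeq2. Without Memantine 3 the adjusted p for Fbln2 was 0.0521.

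Ccn2 encodes connective tissue growth factor, a secreted matricellular protein that is a well-known target of YAP and TEAD transcription factors. It was at 21.4, 41.5 and 19.4 CPM in Glutamate_secret and at 3.76, 5.0 and 3.74 CPM in Memantine, where the libraries differed little (4.17 ± 0.724 CPM, SD, n = 3). The log2 difference was 2.72 ± 0.66 (SE; edgeR adjusted p 0.268, DESeq2 adjusted p 0.0139). The Glutamate libraries spanned 4.09 to 27.0 CPM, a range that held 2 of the Glutamate_secret libraries and 1 Memantine library. Glutamate_vesicles (31.9 to 65.5 CPM) and Glutamate_BPC (21.6 to 113 CPM) libraries were high too, so this was not particular to Glutamate_secret. Ccn1, a relative of Ccn2 and also a YAP and TEAD target, was at 181, 82.8 and 130 CPM in Glutamate_secret against 17.9, 7.78 and 46.6 CPM in Memantine, a log2 difference of 2.44 ± 0.74 (SE). Here the Glutamate range (36.9 to 211 CPM) enclosed all Glutamate_secret libraries, and the Control libraries were at 3.97 to 14.3 CPM. Glutamate_vesicles libraries were at 59.1 to 113.5 CPM and Glutamate_BPC libraries at 88.0 to 200 CPM. Leaving out Memantine 3 brought the edgeR adjusted p of Ccn1 to 0.038.

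The stretches of 250 bases before the annotated starts of Ccn1 (chr2:237225690-237225939, minus strand) and Ccn2 (chr1:22624615-22624864, minus strand) are shown because these relatives were both among the 10 higher genes and share a described regulator. They come from RefSeq, build GRCr8, and run 5′ to 3′ along the gene. Capitals mark GGAATG or its reverse complement CATTCC, the short core that TEAD proteins are known to bind, searched on both strands.
Ccn1: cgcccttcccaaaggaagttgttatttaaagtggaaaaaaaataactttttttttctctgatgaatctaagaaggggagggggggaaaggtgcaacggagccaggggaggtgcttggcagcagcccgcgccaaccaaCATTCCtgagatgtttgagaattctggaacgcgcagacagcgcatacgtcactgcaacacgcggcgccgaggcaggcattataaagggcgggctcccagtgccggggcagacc
Ccn2: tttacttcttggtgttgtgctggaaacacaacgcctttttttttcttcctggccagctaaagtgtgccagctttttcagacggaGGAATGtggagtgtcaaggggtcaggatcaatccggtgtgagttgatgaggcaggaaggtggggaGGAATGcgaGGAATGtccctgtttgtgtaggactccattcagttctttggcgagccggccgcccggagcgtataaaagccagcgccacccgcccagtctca
The Ccn2 stretch held 3 matches, beginning at bases -166, -101 and -92 from the start, and the Ccn1 stretch held 1, at base -113. Among all 33469 stretches of that length in the table, 4037 (12.1%) held at least 1 match and 27 (0.0807%) held 3 or more. Of the 10 higher genes 2 had a match (20%), and of the 9 lower genes with an entry 3 did (33.3%), so the motif was not limited to the higher genes. A match describes letters only.

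The other higher genes were of mixed kinds. Calca, which encodes the neuropeptide CGRP and calcitonin, was at 14.97, 4.91 and 9.59 CPM in Glutamate_secret and 1.93, 0.50 and 2.30 CPM in Memantine (log2 difference 2.64 ± 0.77, SE). Crabp2, a carrier of retinoic acid into the nucleus, was at 6.46, 3.05 and 3.08 CPM against 0.64, 0.94 and 1.01 CPM. For Crabp2 the Control (0.86 to 1.13 CPM) and Glutamate (0.63 to 1.42 CPM) libraries lay with Memantine, so the Glutamate_secret libraries were the high ones of these groups. Glutamate_vesicles libraries were also high (2.09 to 6.66 CPM), and Glutamate_BPC libraries were at 0.65 to 3.11 CPM. Nrarp, a target and feedback inhibitor of Notch signalling, showed the same order, with 25.5, 58.8 and 35.7 CPM in Glutamate_secret, 10.4, 12.3 and 19.8 CPM in Memantine and 10.3 to 21.8 CPM over the Control and Glutamate libraries. It was at 35.4 to 61.4 CPM in Glutamate_vesicles and 20.7 to 45.8 CPM in Glutamate_BPC, so neither gene was high in Glutamate_secret alone. Msn, which encodes moesin and links actin to the membrane, was at 110, 181 and 173 CPM against 54.9, 67.2 and 70.2 CPM, with Glutamate libraries at 77.1 to 117 CPM. Golt1b, a protein of Golgi vesicle transport, and Adpgk, an ADP-dependent glucokinase, had log2 differences of 1.00 ± 0.29 and 0.97 ± 0.28 (SE). LOC120094815, an uncharacterised locus, had one of 1.32 ± 0.40 (SE).

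The 10 lower genes were low in Glutamate_secret and high in Memantine 1 and 2, with Memantine 3 in between. Jakmip1, a neuronal protein that binds microtubules and RNA-protein complexes, was at 3.47, 2.96 and 3.62 CPM in Glutamate_secret and at 33.1, 25.5 and 5.39 CPM in Memantine. Control libraries were at 32.8 to 44.2 CPM and Glutamate libraries at 5.33 to 7.36 CPM, so Memantine 3 fell within the Glutamate range. The log2 difference was -2.67 ± 0.52 (SE; unadjusted p 0.000109) and became -3.12 without Memantine 3, with an edgeR adjusted p of 0.00357. Ppp2r2c, a brain regulatory subunit of protein phosphatase 2A, followed this pattern most sharply, at 22.5, 22.4 and 17.2 CPM in Glutamate_secret and 122, 184 and 22.6 CPM in Memantine. Its groups were barely separated because of Memantine 3, at 22.6 CPM against 22.5 CPM in the highest Glutamate_secret library.

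Foxo6, a forkhead factor of forebrain neurons, was at 1.89, 4.12 and 1.99 CPM in Glutamate_secret and 16.1, 19.1 and 8.12 CPM in Memantine, the log2 difference being -2.40 ± 0.49 (SE). It is the lower gene in which Memantine 3 stayed within the Control range (7.71 to 25.3 CPM). Sptbn4, a spectrin of the axon initial segment and the nodes of Ranvier, was at 5.83, 4.56 and 3.44 CPM against 52.0, 37.5 and 7.11 CPM. The semaphorins Sema4f and Sema4g, membrane proteins of axon guidance, had log2 differences of -2.59 ± 0.57 and -2.00 ± 0.43 (SE). Amigo1, an adhesion protein that accompanies the neuronal Kv2.1 channel, was at 8.19, 10.6 and 3.80 CPM against 46.8, 33.8 and 13.5 CPM. Rgs6, which shortens G protein signals, and Rasgrf1, a calcium-dependent activator of Ras in neurons, had the widest log2 differences of the 10, -3.22 ± 0.73 and -3.15 ± 0.72 (SE). Tmem145, a transmembrane protein, had one of -2.71 ± 0.55.

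Over these 10 lower genes Memantine 3 was the lowest Memantine library every time, against 28.5% of all tested genes. It lay below the Control range in 9 and held between 14.8% and 46.1% of the mean of Memantine 1 and 2. It was within the Glutamate range in 4, above it in Tmem145, Foxo6, Sema4g, Amigo1 and Rgs6, and below it in Ppp2r2c. These placements were not counted over all genes, and the genes were chosen by small p and separated groups, so they describe these genes only. Memantine 1 and 2 were at or above the lower edge of the Control range in 9 of the 10. One further gene, named after its values were seen, had the smallest unadjusted p of all (3.91e-05) and was too low for the rule. Klhdc8a, a kelch-domain protein, was at 0.47, 0.80 and 0.18 CPM in Glutamate_secret and 12.6, 5.72 and 2.95 CPM in Memantine.

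Gene lists were read by their counts and medians beside those of all tested genes, whose median log2 difference was -0.01. Counts by the looser criterion below stand beside 1.55% higher and 7.51% lower of all genes. With the block these shares are 9.42% and 11.6%, and for separated genes 1.78% and 2.8%. A list count near its share says nothing about the list. Of 40 lists, 12 had medians below 0 in each of the 3 same-numbered pairs, 6 had medians above 0 in each, and 22 were mixed. Of 849 entries in the lists, 65 were not tested, 49 of them for low counts and 16 for want of a row.

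**Figure D4:**
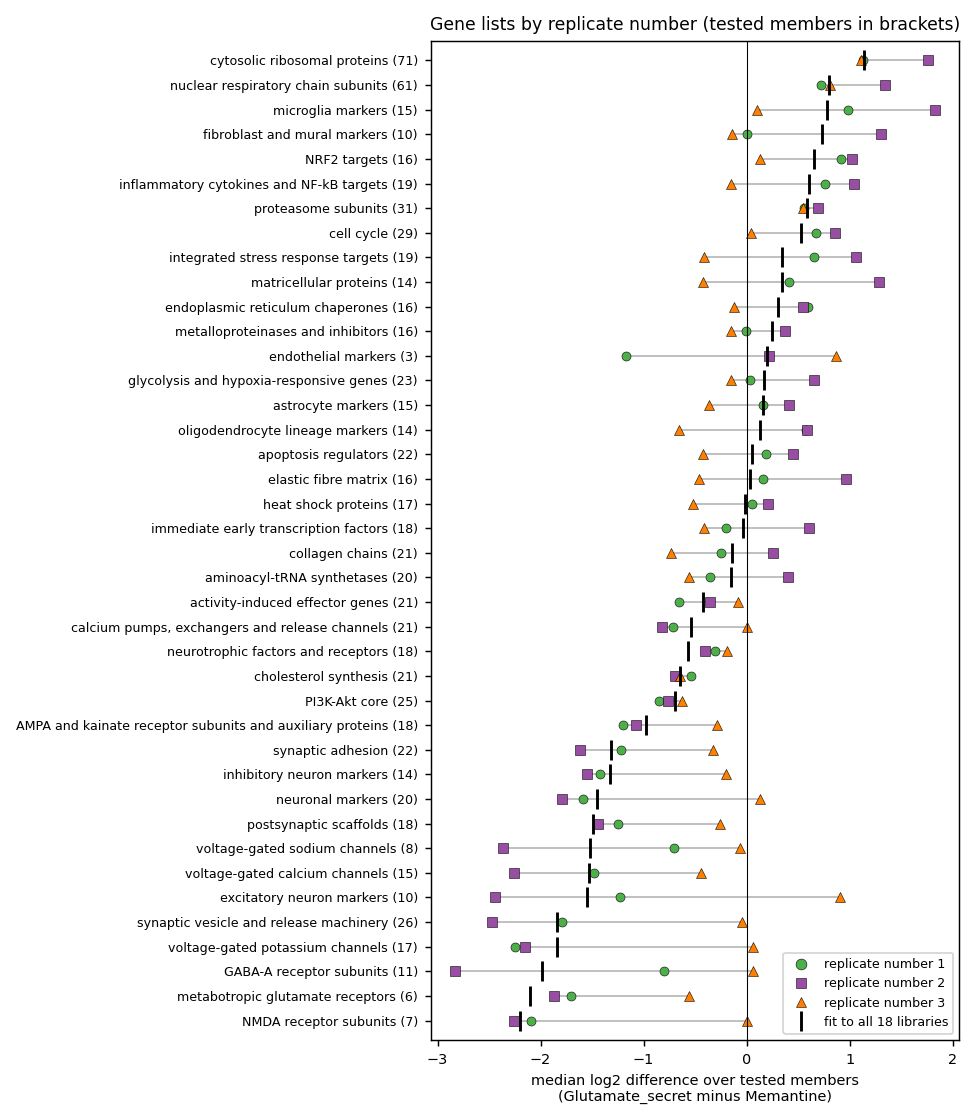
Median log2 difference, Glutamate_secret minus Memantine (x axis), over the tested members of 40 gene lists (y axis, members in brackets), for each same-numbered pair of libraries (symbols) and from the fit to all 18 libraries (black ticks). In all 13 neuronal and synaptic lists the pair numbered 3 lies nearer to 0 than the others, from -0.56 for metabotropic receptors to 0.91 for excitatory neuron markers, and all 3 pairs lie above 1 for the ribosomal proteins at the top.

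Neuronal and synaptic genes were lower in Glutamate_secret as a body, with Memantine 3 carrying most of the disagreement. The 13 neuronal and synaptic lists, grouped here after their values were seen, held 186 different tested genes, of which 175 (94.1%) had a log2 difference below 0, against 50.8% of all genes. By the looser criterion 96 were lower and 0 higher, and with the block 122 lower and 1 higher. Without Memantine 3, 58 of the 186 (31.2%) were called lower and 0 higher by edgeR, beside 3.49% of all genes, and with the block besides 115 (61.8%), beside 9.03%. Memantine 3 was singled out by its low neuronal and synaptic sums, so neuronal calls without it partly follow from that choice. They are not independent support. In the pairs numbered 1, 2 and 3 the share of the 186 genes below 0 was 88.2%, 93% and 57.5%, against 50.5%, 43.9% and 53.2% of all genes. Memantine 3 was the lowest Memantine library for 150 of them (80.6%), against 28.5% of all genes.

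The defining neuronal marker Rbfox3, which encodes the nuclear antigen NeuN, was at 34.0, 19.3 and 19.2 CPM in Glutamate_secret and 163, 80.5 and 24.5 CPM in Memantine. Tubb3, neuronal beta-tubulin, was at 182, 129 and 149 CPM against 475, 598 and 172 CPM. Both groups thus held neuronal transcripts, and their ranges overlapped for all 20 neuronal markers. Over the 20 neuronal markers the median log2 difference was -1.45 and 10 were lower by the looser criterion, 17 with the block. The pair medians were -1.59, -1.79 and 0.13, so the list was not lower in the pair numbered 3, and the leave-one-out range ran from -1.90 without Memantine 3 to -0.80 without Memantine 1. Syn1, which tethers synaptic vesicles, was at 48.7, 43.6 and 19.7 CPM in Glutamate_secret and 327, 136 and 43.3 CPM in Memantine (log2 difference -2.17 ± 0.60, SE), and the groups overlapped through Memantine 3.

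Excitatory neuron markers had a median log2 difference of -1.55 (5 of 10 tested lower by the looser criterion with or without the block), their pair medians ran from -2.44 to 0.91, and the leave-one-out range from -2.08 (Memantine 3) to -0.88 (Memantine 2). Slc17a7, the vesicular glutamate transporter of cortical neurons, was at 19.4, 4.60 and 20.3 CPM in Glutamate_secret and 104, 80.4 and 8.26 CPM in Memantine, so Memantine 3 was below 2 of the 3 Glutamate_secret libraries. Inhibitory neuron markers had a median of -1.32 (6 of 14 lower, 8 with the block and 1 higher). Slc32a1, which loads GABA into vesicles, was separated in all libraries, at 5.198, 4.56 and 5.79 CPM against 23.9, 30.5 and 8.41 CPM (log2 difference -2.02 ± 0.47, SE; edgeR adjusted p 0.268, and 0.00826 without Memantine 3). Vip, a peptide of a class of interneurons, was separated as well, with a log2 difference of -2.06 ± 0.53 (SE).

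Among the receptors that glutamate acts on, the NMDA and metabotropic lists had the lowest medians of all 40 lists and the AMPA and kainate list the least low of the 13 neuronal and synaptic ones. The 7 NMDA receptor subunits had a median log2 difference of -2.21, with 3 lower by the looser criterion and 4 with the block, and pair medians of -2.09, -2.26 and 0.00. Their leave-one-out range was wide, from -2.68 without Memantine 3 to -0.45 without Memantine 2. Grin1, the obligatory subunit, was at 33.2, 18.5 and 19.6 CPM in Glutamate_secret and 197, 109 and 22.6 CPM in Memantine. Grin2b, a glutamate-binding subunit, was at 8.98, 4.42 and 4.71 CPM against 38.8, 62.3 and 3.38 CPM, with Memantine 3 the lowest of the 6 libraries. Without Memantine 3 the edgeR adjusted p was 0.0125 for Grin1 and 0.0114 for Grin2b. Grin2c stood on the other side, at 1.85 ± 0.47 CPM against 0.88 ± 0.26 CPM (SD, n = 3 each, log2 difference 1.046 in the fit with the block, adjusted p 0.313), and its groups did not overlap.

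AMPA and kainate receptor subunits with their auxiliary proteins had a median of -0.97, and of -1.54 without Glutamate_secret 2. Of the 18, 8 were lower, beside 7.51% of all genes, and 10 with the block, beside 11.6%. Grik5, Cacng3 and Cacng4 from this list were separated downward, beside 2.8% of all genes, Grik5 at 58.8, 46.0 and 51.8 CPM in Glutamate_secret and 166, 79.3 and 66.0 CPM in Memantine. Metabotropic glutamate receptors, which signal through G proteins, had a median of -2.11 (4 of 6 lower in both fits), which was -0.83 without Memantine 2 and -3.27 without Glutamate_secret 2. Grm2 was separated at 0.32, 0.49 and 0.18 CPM against 1.61, 2.17 and 1.44 CPM, levels of few counts, and in this gene Memantine 3 did not stand apart. GABA-A receptor subunits had a median of -1.99 (3 of 11 lower, 6 with the block), with pair medians of -0.80, -2.83 and 0.07, and without Memantine 2 the median turned to 0.86.

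Synaptic vesicle and release genes had a median of -1.84 (15 of 26 lower, 21 with the block), postsynaptic scaffolds -1.50 (11 of 18 lower in both fits) and synaptic adhesion genes -1.32 (10 of 22 lower, 12 with the block). Without Memantine 2 these medians were -0.90, -0.62 and -0.23, and without Memantine 3 they were -2.28, -1.94 and -1.71. Camk2b, a calcium-activated kinase of the postsynaptic density, was at 135, 65.1 and 99.9 CPM in Glutamate_secret and 528, 426 and 79.1 CPM in Memantine. Shank1, a scaffold of excitatory synapses, was at 9.14, 17.7 and 3.08 CPM against 66.0, 143 and 9.99 CPM. Clstn1, an adhesion protein and transport adaptor, was the separated adhesion gene, at 175, 238 and 147 CPM against 422, 487 and 246 CPM.

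Voltage-gated channels carry the action potential and the calcium that triggers release. Potassium channels had a median log2 difference of -1.85 (13 of 17 lower, 14 with the block), calcium channels -1.53 (8 of 15 lower, 11 with the block) and sodium channels -1.52 (3 of 8 lower, 4 with the block). Without Memantine 2 the calcium channel median was -0.71 and the sodium channel median 0.15. Cacnb1, an auxiliary calcium channel subunit, was separated at 12.8, 8.72 and 9.41 CPM against 51.8, 42.4 and 15.1 CPM (log2 difference -1.82 ± 0.43, SE). Calcium pumps, exchangers and release channels had a median of -0.54 (4 of 21 lower, 8 with the block; -1.11 without Glutamate_secret 2 and -0.20 without Memantine 2). In that list the plasma membrane pump Atp2b2 was separated, at 7.09, 6.64 and 5.07 CPM against 22.6, 56.0 and 8.19 CPM.

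Among the glial lists, astrocyte and oligodendrocyte lineage markers had medians near 0, while 14 of 15 microglia markers had a log2 difference above 0. Astrocyte markers had a median log2 difference of 0.16 with 0 of 15 past the looser criterion in either fit, and a leave-one-out range across 0, from -0.32 (Glutamate_secret 2) to 0.46 (Memantine 3). Gfap, the astrocyte intermediate filament, was at 3498, 3188 and 5590 CPM in Glutamate_secret and 2875, 1467 and 6530 CPM in Memantine, and Aqp4 at 36.4, 631 and 77.5 CPM against 32.5, 563 and 158 CPM. In both groups Gfap was highest in the library numbered 3 and Aqp4 in the library numbered 2.

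Microglia markers had pair medians of 0.99, 1.83 and 0.10, so the pair numbered 3 was again nearest to 0. Their median in the fit was 0.78 (0 of 15 past the looser criterion, 3 higher with the block). It was 2.30 without Memantine 3 but 0.35 without Memantine 1 and 0.15 without Glutamate_secret 3. Their summed level was 165, 307 and 932 CPM in Glutamate_secret and 65.2, 105.7 and 649 CPM in Memantine, higher in Glutamate_secret within each number although the groups overlapped. Aif1, a defining microglial marker, was at 12.9, 13.2 and 105.5 CPM against 6.44, 2.00 and 38.5 CPM, while Cx3cr1 was at 0.32, 17.8 and 4.16 CPM against 0.21, 5.06 and 6.54 CPM. Without Memantine 3, edgeR called 0 of the 15, and with the block besides 9 were called higher, beside 7.88% of all genes. Memantine 3 had the highest microglial sum of its group, so its removal itself widens the difference. Calls without it are not independent support.

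Oligodendrocyte lineage markers had a median of 0.13 (-0.45 without Glutamate_secret 2), with 1 of 14 higher by the looser criterion and, with the block, 2 higher and 1 lower. The higher one, Olig1, a transcription factor of the lineage, was at 383, 382 and 349 CPM in Glutamate_secret and 186, 116 and 337 CPM in Memantine (log2 difference 0.80 ± 0.37, SE), with Glutamate libraries at 208 to 339 CPM. Mbp was at 75.6, 161 and 100 CPM against 35.3, 94.2 and 137 CPM, and Sox10 was present in all 6 libraries.

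Fibroblast and mural markers summed to 1611, 1526 and 1465 CPM in Glutamate_secret and 495, 348 and 1300 CPM in Memantine. Control libraries were at 279 to 916 CPM and Glutamate libraries at 458 to 1250 CPM. Glutamate_vesicles (1374 to 2503 CPM) and Glutamate_BPC (1259 to 1648 CPM) sums were high too, so this was not particular to Glutamate_secret. Of 14 markers 10 were tested, with a median log2 difference of 0.73, and 2 were higher by the looser criterion, 3 with the block. Without Glutamate_secret 2 the median was -0.14. The most expressed members were Tagln and Vim, and glia also express Vim. Tagln, an actin-binding protein of contractile cells, was at 808, 333 and 769 CPM against 97.1, 38.4 and 391 CPM (log2 difference 1.86 ± 0.83, SE). The defining fibroblast marker Col1a1 was at 1.10 to 7.42 CPM in Glutamate_secret and 1.11 to 2.23 CPM in Memantine, and Dcn was too low to test. The part of fibroblast or mural cells in the matrix results was not tested. Endothelial markers were near 0, with Pecam1 at 0.16 to 2.28 CPM over the 6 libraries and 3 of 10 markers tested, none past the looser criterion and 1 with the block (median 0.20).

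Around Fbln2, Ccn1 and Ccn2 the matrix lists were divided. Among 16 tested elastic fibre genes 3 were higher and 1 lower by the looser criterion, 4 and 1 with the block, and the median of 0.03 was 0.74 without Memantine 3. Mfap4, a microfibril-associated protein, was at 79.9, 36.8 and 110 CPM in Glutamate_secret and 13.2, 2.06 and 34.4 CPM in Memantine, all Glutamate_secret libraries being above the Control (4.81 to 12.7 CPM) and Glutamate (8.19 to 25 CPM) ranges. Fbln5, another fibulin, was at 27.7, 67.2 and 25.2 CPM against 12.02, 20.5 and 22.4 CPM. Eln, elastin itself, was the lower one, at 12.4, 18.1 and 12.7 CPM against 38.5, 22.2 and 38.8 CPM (log2 difference -1.20 ± 0.37, SE).

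Matricellular genes had 3 of 14 higher and 1 lower, 5 and 1 with the block (median 0.34, 0.91 without Memantine 3 and 0.05 without Glutamate_secret 2). Collagen chains had 0 of 21 past the looser criterion and 1 lower with the block (median -0.14, -1.25 without Glutamate_secret 2 and 0.27 without Glutamate_secret 1). Metalloproteinases and their inhibitors had 2 of 16 lower, and with the block 2 higher and 2 lower (median 0.25). Timp1, an inhibitor of metalloproteinases, was at 492, 158 and 322 CPM in Glutamate_secret and 202, 12.1 and 173 CPM in Memantine, with overlapping groups.

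Inflammatory cytokines and NF-kB targets had a median log2 difference of 0.60, with 1 of 19 higher by the looser criterion and 3 with the block, and 5 of the 19 were separated upward, beside 1.78% of all genes. The median was 0.91 without Memantine 3 and 0.27 without Glutamate_secret 2. Ccl2, a chemokine that draws monocytes, was at 38.0, 31.3 and 19.6 CPM in Glutamate_secret and 3.01, 1.67 and 9.27 CPM in Memantine (log2 difference 2.67 ± 1.12, SE), within a Glutamate range of 4.83 to 84.5 CPM. The separated Il6, Ccl7, Birc3 and Lcn2 were low, none above 13.4 CPM in any of the 6 libraries. Immediate early factors had a median of -0.03 (1 of 18 higher, and 2 higher and 2 lower with the block). Fos was at 31.0, 27.6 and 48.9 CPM against 47.2, 19.7 and 41.0 CPM, both groups being above the Control range of 9.10 to 13.7 CPM. Junb was at 51.4, 19.1 and 58.7 CPM against 9.56, 6.11 and 25.9 CPM (log2 difference 1.63 ± 0.66, SE). Activity-induced effector genes had a median of -0.43 (1 of 21 higher and 2 lower, 1 and 4 with the block). Plk2, a kinase induced by synaptic activity, was at 8.03, 14.4 and 5.97 CPM against 35.0, 91.6 and 9.41 CPM.

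No member passed the looser criterion without the block among 19 targets of the integrated stress response (median 0.34), 16 chaperones of the endoplasmic reticulum (0.30), 16 NRF2 targets (0.65), 17 heat shock proteins (-0.02) and 22 apoptosis regulators (0.05). With the block 2, 3, 5, 1 and 3 of them were higher, in that order, and 1 heat shock protein was lower, beside 9.42% higher and 11.6% lower of all genes. For the integrated stress response, heat shock and apoptosis lists the counts lay near that share. The apoptosis median was -0.59 without Glutamate_secret 2. Prdx1, a peroxidase under NRF2, was at 1062, 519 and 1226 CPM in Glutamate_secret and 241, 198 and 818 CPM in Memantine. Canx, an endoplasmic reticulum chaperone, was separated at 1114, 621 and 1882 CPM against 572, 550 and 323 CPM.

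Cholesterol synthesis was lower in Glutamate_secret than in Memantine by similar amounts in the 3 pairs, including the pair numbered 3 (medians -0.54, -0.69 and -0.64). The list summed to 1628 to 2001 CPM in Glutamate_secret and 2389 to 3020 CPM in Memantine. Control libraries were at 1555 to 2294 CPM and Glutamate libraries at 2005 to 2427 CPM. Glutamate_secret thus lay within the Control range, and Memantine lay above it. Of 21 tested genes 18 had a log2 difference below 0, 7 were lower by the looser criterion and 9 with the block, and 5 of the 21 were separated downward, beside 2.8% of all genes. The leave-one-out range of the median was -0.70 to -0.47. Hmgcs1, an early enzyme of the pathway, was at 289, 238 and 342 CPM in Glutamate_secret and 685, 593 and 394 CPM in Memantine (log2 difference -0.94 ± 0.33, SE). Srebf2, the transcription factor of the pathway, was at 62.7, 74.9 and 43.1 CPM against 159, 135 and 74.4 CPM, the highest Glutamate_secret library lying just above Memantine 3.

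PI3K-Akt core genes also had pair medians below 0 throughout (-0.85, -0.77 and -0.63). Of 25 tested 23 were below 0, 4 were lower by the looser criterion and 6 with the block, and 3 were separated downward, beside 2.8% of all genes. Without Memantine 2, however, the median was 0.06, with that of all genes at 0.14. Pik3cd, a catalytic subunit, was at 3.62, 2.21 and 2.17 CPM in Glutamate_secret and 10.8, 10.6 and 3.88 CPM in Memantine, with Control libraries at 9.42 to 10.9 CPM. Pik3r2, a regulatory subunit, was at 74.7, 64.6 and 76.8 CPM against 150, 102 and 97.5 CPM. Akt1 itself was at 87.0, 127 and 78.0 CPM against 79.0, 134 and 123 CPM, without separation. Neurotrophic factors and receptors had a median of -0.57 (0.16 without Memantine 2), with 1 of 18 lower and 2 with the block, and Ntrk2, the BDNF receptor, was at 634, 899 and 1148 CPM against 902, 796 and 852 CPM. Glycolytic and hypoxia-responsive genes had a median of 0.17 (3 of 23 lower, 4 with the block), among them Hk1, brain hexokinase, at 86.5, 180 and 54.0 CPM against 291, 405 and 152 CPM.

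Ribosomal protein, proteasome and respiratory chain genes had median differences above 0 in every pair. Of 79 cytosolic ribosomal proteins 71 were tested, and all 71 had a log2 difference above 0, with a median of 1.14 and pair medians of 1.13, 1.77 and 1.11. Only 1 passed the looser criterion without the block, and 50 did with it. The spread lay between numbers, as Rps10 shows, at 157, 65.4 and 174 CPM in Glutamate_secret and 64.3, 17.6 and 60.5 CPM in Memantine. In the fit of the 6 libraries with the block 32 of the 71 were called higher, beside 2.15% of all genes. Ribosomal protein genes took 15.8%, 5.49% and 13.0% of the counts in Glutamate_secret and 8.76%, 1.93% and 10.3% in Memantine, higher in 3 of 3 same-numbered pairs (exact permutation tests, two-sided: p = 0.40 between the groups, p = 0.25 within pairs, the smallest that 3 pairs allow). Ribosomal RNA took 15.8%, 3.04% and 26.6% against 13.9%, 4.16% and 8.83%, and was higher in Glutamate_secret in 2 of the 3 pairs. With the ribosomal RNA share as a covariate the ribosomal protein median was 0.71, all 71 stayed above 0 and 0 were called, and the respiratory chain median was 0.41. Short, abundant mRNAs of this kind share reads with many pseudogenes, so single members are uncertain.

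Nuclear subunits of the respiratory chain had a median of 0.80 (0 of 61 past the looser criterion, 19 higher with the block, 58 above 0), with 13 called higher in the fit of the 6 libraries with the block, beside 2.15%. Uqcrfs1, the iron-sulfur protein of complex III, was at 204, 107 and 270 CPM in Glutamate_secret and 42.1, 64.0 and 190 CPM in Memantine. Proteasome subunits had pair medians of 0.56, 0.70 and 0.55 (1 of 31 higher, 8 with the block, 28 above 0). Psma3 was separated at 226, 156 and 248 CPM against 125, 103 and 155 CPM, by a narrow gap. Leaving out each library in turn moved the medians of the ribosomal, respiratory and proteasome lists over 0.65 to 1.64, 0.36 to 1.22 and 0.30 to 0.87, all above 0 and lowest without Memantine 2. Without Memantine 2 the median of all genes was itself 0.14, which leaves the respiratory and proteasome medians closer to it. Cell cycle genes had a median of 0.53 (2 of 29 higher, 9 with the block), with Pcna at 120, 117 and 147 CPM against 35.5, 47.9 and 146 CPM, where Memantine 3 lay with Glutamate_secret. Aminoacyl-tRNA synthetases had a median of -0.15 with 0 of 20 past the looser criterion in either fit, unlike the ribosomal proteins, a difference between lists that was not tested.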

How the data were processed

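RNA from primary neuroglial cultures was sequenced in 18 libraries of 6 groups. The values are estimated counts per gene that the authors deposited, made with Salmon and tximport against Ensembl 106 (the labels name STAR, Salmon and rn6), after Trimmomatic and Cutadapt. The labels name a DNBSEQ strand-specific kit and the study's methods NEBNext and KAPA kits, and the sources used here do not state whether counting used strand. Each file has 31463 rows, of which 5581 carry transcript identifiers instead of symbols. Estimated counts were rounded and fitted with edgeR 4.0.16 (R 4.3.3; quasi-likelihood F test, trimmed mean of M values, filterByExpr with a minimum count of 10 and minimum total of 15, group means over all 18 libraries), two-sided with Benjamini-Hochberg adjustment. Log2 CPM used a prior count of 2. The study's own fits used the likelihood-ratio test, which with DESeq2 1.42.0 is among the alternatives.

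Whether replicate numbers pair libraries was taken from the data: deviations from the group means of same-numbered Glutamate_secret and Memantine libraries correlated at 0.658, 0.826 and 0.433, so blocked values are given where they move a result. The labels give no shared day or culture, and the study names a day covariate only in an ordination of other groups. Glutamate_secret 3 correlated about equally with Memantine 1 (0.443) and Memantine 3. The named genes were, among separated genes with a symbol and an average log2 CPM of 1 or more, the 10 higher and 10 lower with the smallest p, plus for each list its 2 most expressed tested members and its 2 with the smallest p, of which some are printed. Other list members named for separated ranges, or as defining or well-known genes of their list (among them Slc17a7, Fos, Grin2c, Grik5, Mfap4 and Fbln5), fall outside this rule and were chosen after their values were seen. The comparison, lists and rules were chosen with earlier results of these data known. The fits were tested on simulated data. Promoters were taken from RefSeq (GRCr8) by symbol. Counting depth alone limits low genes, and intervals cover the spread between libraries only.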

Additional observations from a re-analysis of the deposited data

How the results depend on the processing

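Settings were varied one at a time, apart from those that join the replicate block to another change. The replicate block left the number of genes called at an adjusted p below 0.05 at 0 and moved the looser count (unadjusted p below 0.05, fold above 1.5) from 1304 to 3029, with 1288 genes in both, all in the same direction. With only the 6 libraries, the looser count was 352 without the block and 3177 with it, and 444 genes were called with the block. The likelihood-ratio test called 82 genes and DESeq2 202, of which 80 were shared. The ribosomal RNA share as a covariate gave 1 call and a looser count of 2087, and with the replicate block 4 calls and 2997. Leaving out single libraries gave 0 to 673 calls and looser counts of 722 to 2914. Only the removal of Memantine 3 gave calls (673, of which 185 were among the 202 of DESeq2). The looser count was 827, 837 and 2914 without Memantine 1, 2 and 3 and 931, 2730 and 722 without Glutamate_secret 1, 2 and 3. With the replicate block, chosen after seeing the data, it was 2143, 3286 and 1968 without Glutamate_secret 1, 2 and 3 and 1337, 1487 and 4832 without Memantine 1, 2 and 3, and 2477 genes were called without Memantine 3. Size factors of DESeq2 in edgeR, no filter on low counts and removal of ribosomal RNA rows left 0 calls and 1344, 1424 and 1310 genes. The causes of these moves were not tested. None of the 20 genes chosen by p and separated ranges changed sign under any of 22 alternatives. Separated ranges largely fixed these signs in advance, so this is no measure of robustness. Among 25 lists with a median beyond 0.5, 5 of 550 values changed sign: fibroblast and mural markers without Glutamate_secret 2 (-0.14), and GABA-A receptors (0.86), sodium channels (0.15), neurotrophic genes (0.16) and PI3K-Akt genes (0.06) without Memantine 2. Removing Memantine 2 or Glutamate_secret 2 moved the median of all genes to 0.14 or -0.23. Depth limits genes at a few counts, such as Grm2.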
